A study of Homo sapiens with 6 samples.

Results

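The transcription factors BCL6, PAX5, IRF4, IRF8, EBF1, SPIB, SPI1, POU2AF1, POU2F2 and IKZF1 give B cells their identity and direct their response to antigen. The binding of eukaryotic initiation factor 4B (eIF4B) to the RNAs of these 10 genes was described in the B-cell lymphoma line DoHH-2 and the control B-cell line GM01953. A gene's counts were taken from the positions that the authors' tables list under its symbol, among 13668 protein-coding genes with at least 1 count in either cell line. Of the 10 genes, 9 had counts in DoHH-2 and 9 in GM01953. IRF8 had none in DoHH-2 and SPI1 had none in GM01953.

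DoHH-2 is a cell line from diffuse large B-cell lymphoma (DLBCL), and GM01953 is a control B-cell line that is not from a tumour. The lines are not isogenic, each stands for 1 line only, and no treatment is given for either. In iCLIP, living cells are cross-linked with UV light, the RNA held by eIF4B is recovered with an antibody, and the end of each cDNA maps the cross-link to a single nucleotide. The tables pool 4 replicates of DoHH-2 and 2 of GM01953, made of libraries that the authors had partly merged, so every value below is 1 number per cell line, without an SD and without a test between the lines.

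The tables hold 2033156 cDNA counts in DoHH-2 and 167197 in GM01953, so 1 count stands for 12.2 times as large a share of the library in GM01953. Counts are therefore compared as counts-per-million (CPM), scaled to the total of the cell line. Intervals are 95% and cover counting error only. They leave out replicate spread and any PCR copies that escaped removal. A gene without counts is given the limit that a count of 0 allows, 3 counts, which is 1.48 CPM in DoHH-2 and 17.9 CPM in GM01953. The amount of each mRNA was not measured in these tables, so more mRNA and more eIF4B per mRNA cannot be told apart. As a check of the cell type, 4 of 5 B-cell markers had counts in DoHH-2 and all 5 in GM01953, while the 5 T-cell, 4 monocyte and 4 erythroid markers had 1 count in DoHH-2 and 0 in GM01953. The summed level of the 5 B-cell markers was 113 CPM in DoHH-2 and 1477 CPM in GM01953, so the lines differed in these markers too. MS4A1, which encodes CD20, had 13 counts in DoHH-2 and 152 in GM01953. CD79A and CD79B, signalling chains of the B-cell receptor, had 71 and 99 counts in DoHH-2 and 43 and 7 in GM01953. In CPM, CD79A had 34.9 in DoHH-2 and 257 in GM01953, 7.36-fold higher in GM01953. CD79B had 48.7 and 41.9 CPM, a ratio of 1.16 in favour of DoHH-2 with an interval that included 1 (0.544–2.97). CD22, a B-cell lectin named here after its values were seen, had 0 counts in DoHH-2 and 27 in GM01953. The part of these differences in the results below was not tested.

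eIF4B is a cofactor of the RNA helicase eIF4A, and helps it to open structure in the 5′ UTR so that the small ribosomal subunit can reach the start codon. B-cell development is set by a small network of DNA-binding proteins. EBF1 and PAX5 commit progenitors to the B lineage and hold them there, with SPI1 (PU.1), SPIB and IKZF1 (Ikaros) acting beside them. In the germinal centre, BCL6 represses genes of differentiation, IRF8 and the pair of POU2F2 (OCT2) and its coactivator POU2AF1 (OBF1) support the reaction, and IRF4 later drives plasma cell differentiation. Lymphomas such as DLBCL often keep or alter the activity of these factors.

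Together the 10 genes had 3200 counts at 2584 positions in DoHH-2 and 336 counts at 161 positions in GM01953. This is 1574 CPM in DoHH-2 (1520–1629) and 2010 in GM01953 (1800–2236), so the sum was 1.28-fold higher in GM01953 (1.14–1.43). The direction turned when positions were counted in place of cDNAs, with a ratio of 1.07 in favour of DoHH-2 (0.911–1.26). Across the 9416 protein-coding genes with at least 20 counts over both lines, the median gene was 1.15-fold higher in DoHH-2. The median over the 10 genes was 1.28-fold higher in GM01953, with genes at 0 placed at their limit. It is over an unlike set, as it includes IRF8 and POU2F2, which had fewer than 20 counts and the lowest ratios. Among the other 8 genes, the middle ratios of DoHH-2 over GM01953 were 0.785 (PAX5) and 1.04 (BCL6).

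**Figure D1:**
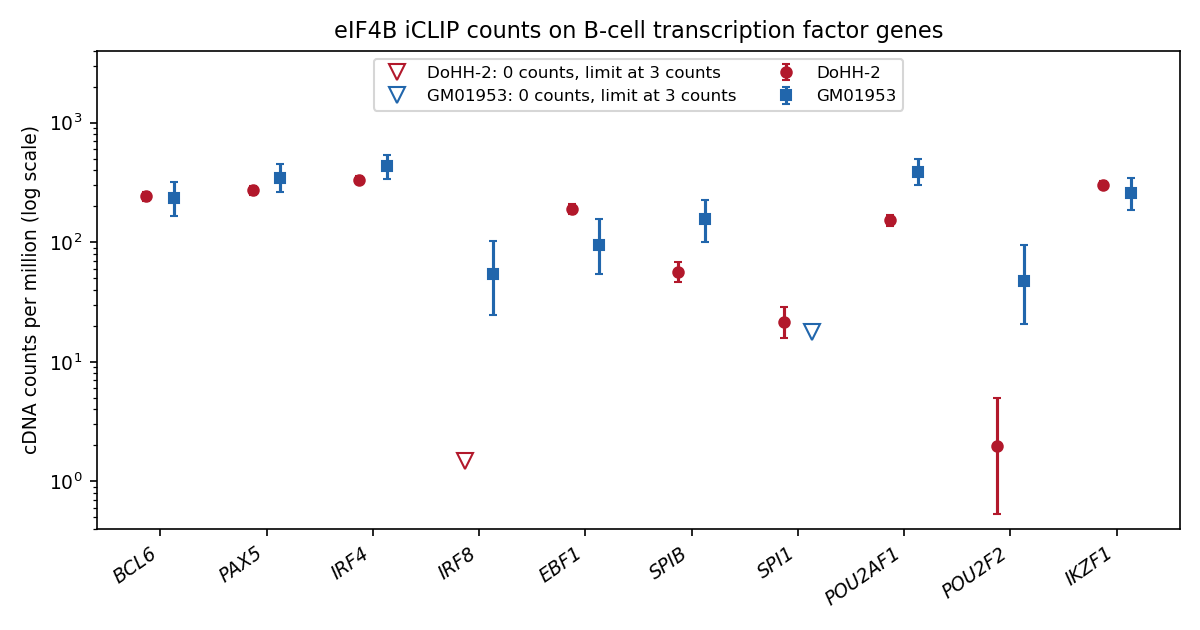
cDNA counts in CPM (log axis) on each of the 10 genes in DoHH-2 (red circles) and GM01953 (blue squares); bars are exact Poisson 95% intervals, and open triangles mark genes with 0 counts at the limit of 3 counts. IRF8 and POU2F2 lie far lower in DoHH-2, SPIB and POU2AF1 lie lower there by 2.75-fold and 2.55-fold, and BCL6 is level, with 32 of its 39 counts in GM01953 at a single intronic position.

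Positions to which the authors' iCount analysis gave an FDR below 0.05 are taken as binding sites, and a gene with more than 20 counts at its sites as bound. By this measure 7 of the 10 genes were bound in DoHH-2, where 33.3% of protein-coding genes with counts were bound. BCL6, PAX5, IRF4, EBF1, SPIB, POU2AF1 and IKZF1 passed, from 35 counts at the sites of SPIB to 214 at those of IRF4. With positions listed for no other gene, 6 were bound, without SPIB. The paper's own selection of bound genes also required enrichment over total RNA, which was not applied here. The genes below the threshold were SPI1 with 8 counts at sites, and POU2F2 and IRF8 with 0. In GM01953, 5 of the 10 were bound against 8.34% of all protein-coding genes with counts. These were POU2AF1 with 49 counts at sites, IRF4 with 45, PAX5 with 44, BCL6 with 39 and IKZF1 with 37. SPIB fell just short there with 18. No member was bound in GM01953 alone. The threshold was the same in both lines although DoHH-2 had 12.2 times the counts, which makes such a gene hard to find in any set. The same share over all protein-coding genes was not taken.

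The level of binding over each mature mRNA was set against its length. Exonic counts per kb of the MANE Select transcript, the reference transcript chosen for each gene, were highest in DoHH-2 on IRF4 (113 per kb), BCL6 (98.9), POU2AF1 (83.1) and IKZF1 (73.1). These values lay above 90.1% to 93.7% of the protein-coding genes with counts. PAX5 (40.1), EBF1 (31.5), SPI1 (29.8) and SPIB (26.6) followed, and POU2F2 was far below with 0.283 per kb. In GM01953 the order began with POU2AF1 (18.8 per kb, above 96.0% of genes) and IRF4 (12.2, above 93.4%), followed by IKZF1 (5.28), PAX5 (4.94), SPIB (3.96) and IRF8, with 8 exonic counts on 2668 nt. BCL6 had 2.12 per kb, POU2F2 0.850 and EBF1 0.740. BCL6 was thus second of the 10 in DoHH-2 and seventh in GM01953 on its mature mRNA.

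Among the 8 genes with at least 20 counts over both lines, 0 were 2-fold or more higher in DoHH-2, where 24.3% of the 9416 protein-coding genes were, with counts of 0 set to 3 in every gene. SPI1, among the 8, could not be called higher in DoHH-2, because its limit in GM01953 held the ratio at 1.21. SPIB and POU2AF1, 2 of the 8, were at least 2-fold higher in GM01953, where 14.2% of genes were. POU2F2 and IRF8, with fewer counts, were also past 2-fold on that side. The other genes with counts in both lines lay within 2-fold of each other, and EBF1 was just inside. All 7 genes with sites in both lines had a lower ratio of DoHH-2 over GM01953 at sites than over all positions. This is not particular to them, as sites held 48.7% of the counts of all protein-coding genes in DoHH-2 and 66.1% in GM01953.

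**Figure D2:**
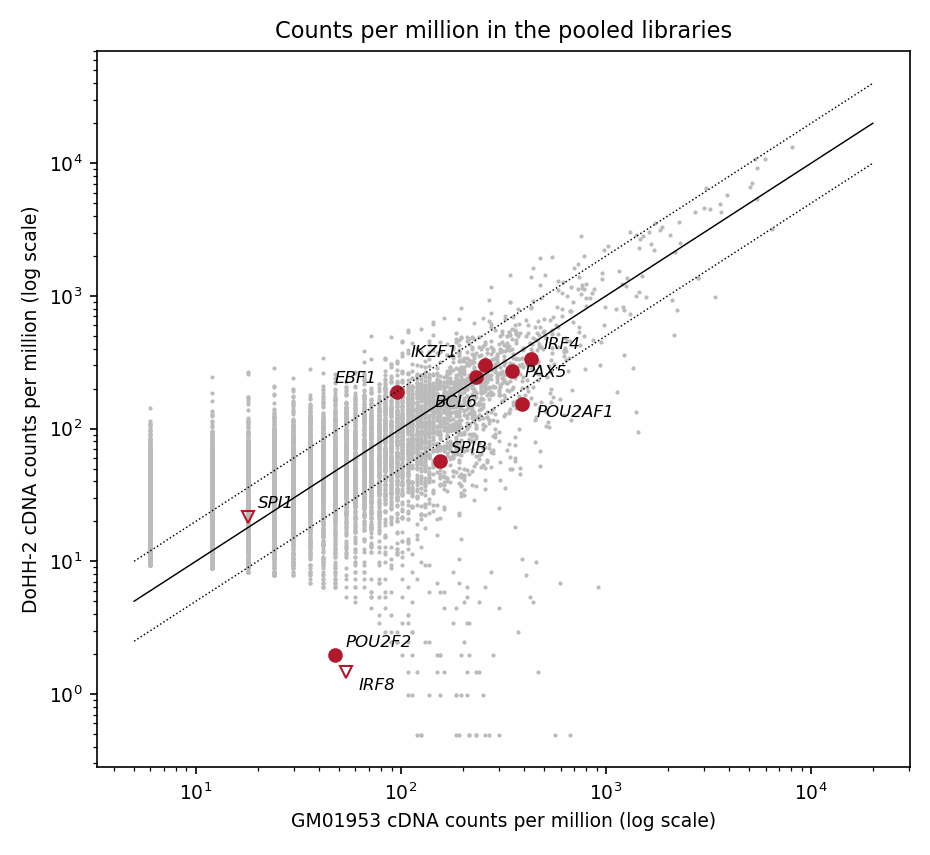
DoHH-2 against GM01953 levels in CPM (log axes) for protein-coding genes with counts in both lines and at least 20 counts in all (grey), and for the 10 genes (red); open triangles place a count of 0 at its limit. The solid line marks equal levels and the dotted lines 2-fold, outside which POU2AF1, SPIB, POU2F2 and IRF8 lie on the GM01953 side.

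BCL6 (ENSG00000113916, chr3:187721377-187745725 of GRCh38, minus strand) encodes the repressor that holds B cells in the germinal centre programme. It had 494 counts at 364 positions in DoHH-2, which is 243 CPM (222–265). In GM01953 it had 39 counts, 233 CPM (166–319), and the levels differed by 1.04-fold (0.751–1.48). The equal levels went with unlike patterns, as the 39 counts of GM01953 lay at 2 positions only. At the depth of GM01953, the counts of DoHH-2 would fill 38.0 positions. One of the 2 positions held 32 counts and lay in intron 1 of the MANE Select transcript, 2885 nt from its nearest exon and within an exon of 1 other protein-coding transcript. The other held 7 counts in the coding sequence, at nucleotide 1855 of the mRNA, so BCL6 passed as bound in GM01953 through 1 position. The same nucleotides had 2 counts and 1 count in DoHH-2. Without its highest position in each line, BCL6 was 5.59-fold higher in DoHH-2 (2.69–14.0), and in exons of the MANE Select transcript it was 3.46-fold higher (1.66–8.67). At sites the direction was the opposite, with a ratio of DoHH-2 over GM01953 of 0.422 (0.295–0.615). In DoHH-2 the counts were spread, with 32.4% in the coding sequence, 33.2% in the 3′ UTR, 33.8% in introns and 3 counts in the 5′ UTR. The highest position there held 18 counts and lay 252 nt after the stop codon, and GM01953 had none within 10 nt. The sequences around the highest position of each line are shown to place these isolated signals, read 5′ to 3′ on the transcribed strand of the GRCh38 reference genome with the listed nucleotide in capitals, at chr3:187722196-187722216 and chr3:187737782-187737802.
BCL6 in DoHH-2: ggtgaaccatGtcagcaaaaa
BCL6 in GM01953: tgcctgctgcAttgacggcgt

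PAX5 (ENSG00000196092, chr9:36833269-37034268, minus strand) keeps B cells in their lineage and has the longest 3′ UTR of the 10, with 7291 nt. DoHH-2 had 554 counts at 500 positions, or 272 CPM (250–296), and GM01953 had 58 counts at 32 positions, or 347 CPM (263–448). The ratio of 1.27 in favour of GM01953 had an interval that included 1 (0.954–1.67). The interval did not include 1 at sites, where the ratio of DoHH-2 over GM01953 was 0.176 (0.120–0.262), in exons, where it was 0.601 (0.437–0.845), or per count assigned to a gene, where it was 0.735 (0.560–0.981). Binding was diffuse in DoHH-2, where 92.4% of the positions had a single count and only 13.4% of the counts lay at sites, against 75.9% in GM01953. Most PAX5 counts lay in the 3′ UTR, with 56.3% for DoHH-2 (52.2–60.4) and 58.6% for GM01953 (45.8–70.4). Its coding sequence held 5.60% and 13.8%. Introns held 37.0% of the DoHH-2 counts and 25.9% of those in GM01953. Because they span 192296 nt, this came to 1.07 counts per kb of intron in DoHH-2, against 40.1 per kb of exon. The highest position of DoHH-2 had 7 counts, 1711 nt after the stop codon. GM01953 had 4 counts at each of 2 positions, one in the coding sequence and one in intron 5.

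IRF4 (ENSG00000137265, chr6:391739-411443, plus strand) is needed for class switching and plasma cell differentiation. It had the most counts of the 10 in both lines, with 681 at 519 positions in DoHH-2 and 72 at 36 positions in GM01953. In CPM these were 335 (310–361) and 431 (337–542), a ratio of 1.29 in favour of GM01953 (0.994–1.64). The ratio of DoHH-2 over GM01953 was lower at sites, 0.498 (0.360–0.703), in exons, 0.682 (0.528–0.895), and per count assigned to a gene, 0.728 (0.571–0.942), with intervals that did not include 1. The regions bound on IRF4 differed as well. In DoHH-2 64.8% of the IRF4 counts were in the 3′ UTR (61.1–68.3), compared with 36.1% in GM01953 (26.0–47.6). The coding sequence held 22.2% in DoHH-2 (19.2–25.4) and 54.2% in GM01953 (42.7–65.2). Over all protein-coding genes the coding sequence held 42.2% and 41.0%, so the lines differed on IRF4 by more than they did overall. The difference lay far from the stop codon. Beyond 500 nt into the 3′ UTR, a split chosen after the values were seen, DoHH-2 had 318 of 599 exonic counts, 53.1% (49.1–57.1), and GM01953 had 9 of 65, 13.8% (7.46–24.3). Up to that point the lines had 281 and 56 exonic counts.

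Just downstream of the IRF4 stop codon, DoHH-2 had its densest stretch of 50 nt, with 51 counts at 20 positions from 11 to 60 nt after the codon. GM01953 had 5 counts in this stretch. Within it, nucleotides 1507 to 1517 of the mRNA are all T in the reference genome, and 1507 and 1508 had counts in both lines. The part of this T run in the density was not tested. Within 50 nt to each side of the stop codon the density in DoHH-2 was 420 counts per kb, against 111 per kb in the coding sequence and 106 per kb in the rest of the 3′ UTR. In GM01953 it was 90 per kb, against 27.1 and 5.80. The stop codon region, which includes the T run, was thus the densest of the mRNA regions compared on IRF4 in both lines. Single positions differed, with 12 counts at 3044 nt after the stop codon in DoHH-2, where GM01953 had none within 10 nt. The highest position of GM01953 held 10 counts in the coding sequence at nucleotide 575 of the mRNA, where DoHH-2 had 3 counts within 10 nt. Both are shown because each line peaked in another region, at chr6:410632-410652 and chr6:395895-395915 on the plus strand, with the listed nucleotide in capitals.
IRF4 in DoHH-2: tcttggctttGttgatgctcc
IRF4 in GM01953: cctacaccatGacaacgcctt

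**Figure D3:**
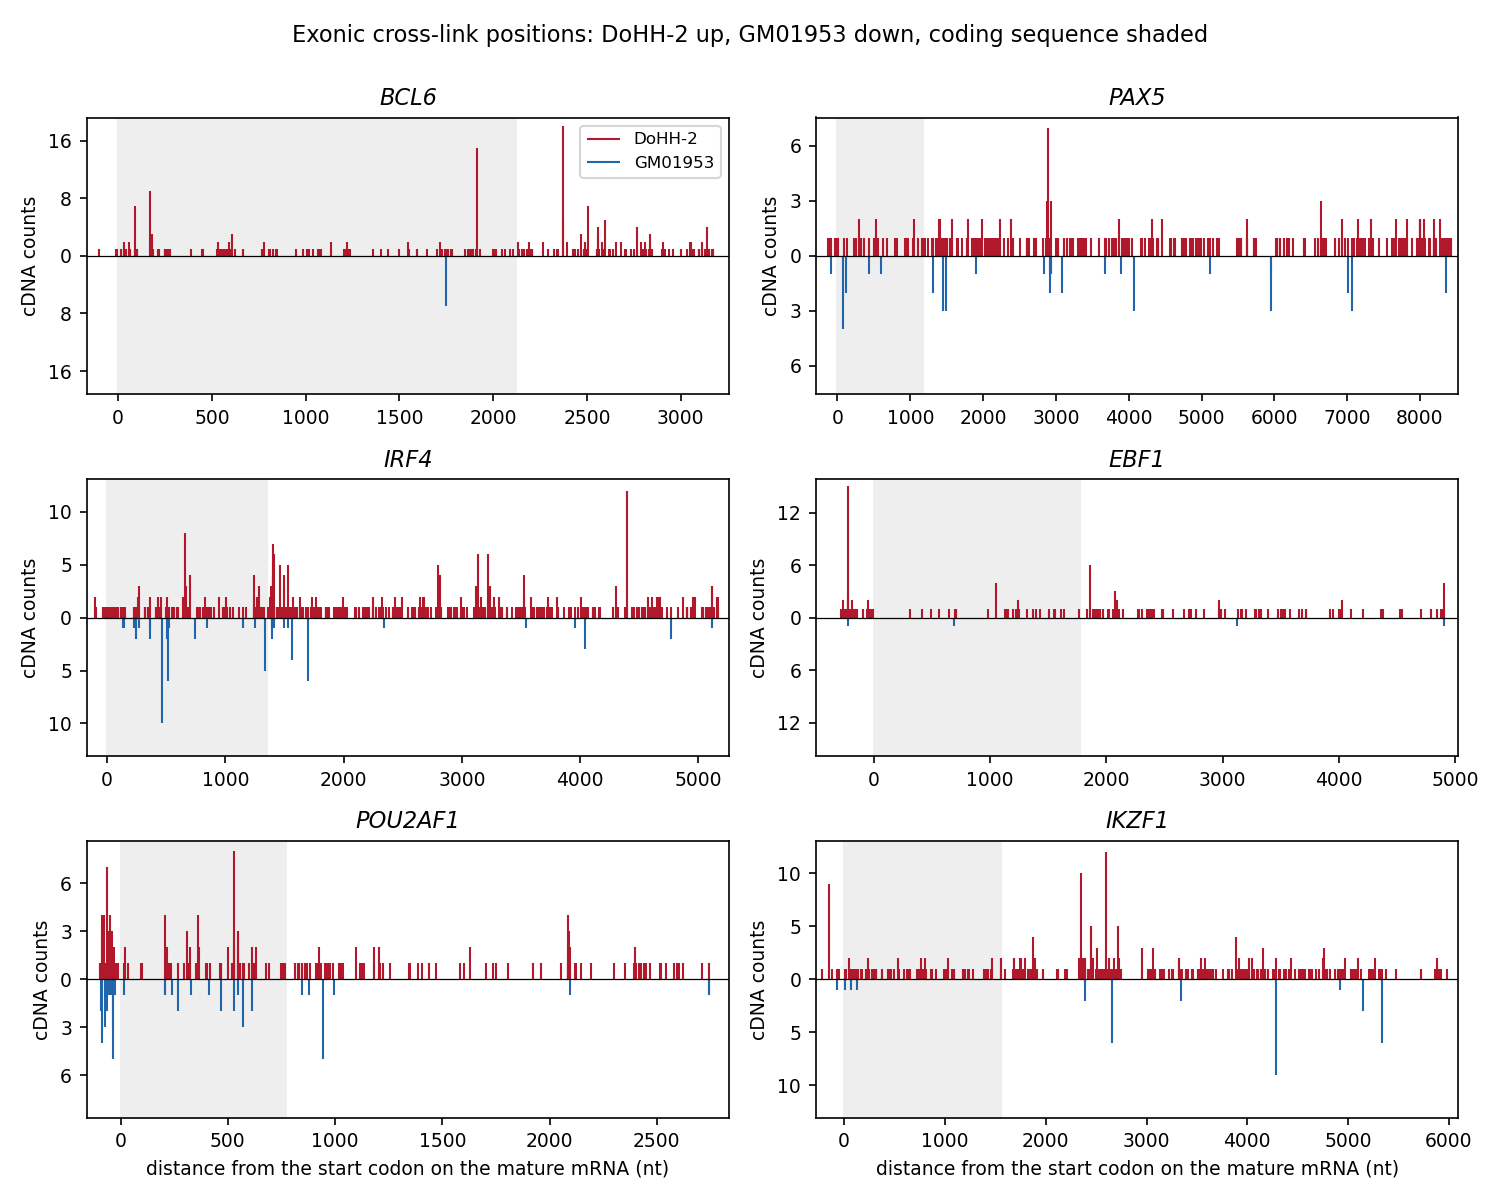
cDNA counts at single nucleotides of the mature mRNAs of 6 genes, by distance from the start codon in nt, with DoHH-2 drawn upward and GM01953 downward and the coding sequence shaded; intronic positions, such as the 32 counts of BCL6 in GM01953, are not drawn. On IRF4 the far 3′ UTR holds 318 DoHH-2 counts against 9 for GM01953, and on POU2AF1 both lines have a cluster at the 5′ end.

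IRF8 (ENSG00000140968, chr16:85899116-85922606, plus strand), an interferon regulatory factor that acts with SPI1 in germinal centre B cells, had 0 counts in DoHH-2 and 9 counts at 8 positions in GM01953. Its level in GM01953 was 53.8 CPM (24.6–102), and the exact interval of the ratio starts at 24.0-fold higher in GM01953. In DoHH-2 no position of either strand was listed for 148448 nt around the gene, between listed positions at chr16:85816545 and chr16:85964994. The nearby genes EMC8, COX4I1 and GINS2 had 54, 369 and 188 counts in DoHH-2. For comparison, 1.95% of the 4112 protein-coding genes with at least 9 counts in GM01953 had none in DoHH-2. The 9 counts of GM01953 were 5 in the coding sequence, 3 in the 3′ UTR and 1 in an intron. Its highest position held 2 counts, in the coding sequence at chr16:85909124.

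EBF1 (ENSG00000164330, chr5:158695920-159099916, minus strand), the pioneer factor of B-lineage commitment, had the highest ratio in favour of DoHH-2 among the genes with counts in both lines. It had 385 counts at 322 positions there, 189 CPM (171–209), and 16 counts at 11 positions in GM01953, 95.7 CPM (54.7–155). The ratio was 1.98 in favour of DoHH-2, with an interval of 1.20 to 3.50. At sites it was 1.26, with an interval that included 1 (0.550–3.54). Introns of 398592 nt in all held most of its counts, at 55.8% in DoHH-2 (50.9–60.7) and 12 of 16 in GM01953. Even so, exons had 31.5 counts per kb in DoHH-2 and introns 0.539. The 5′ UTR of 438 nt held 46 counts in DoHH-2 and 1 in GM01953. Of these 46 counts, 15 were at a single nucleotide, number 215 of the mRNA, and 27 lay within a stretch of 50 nt that includes it. In GM01953 the highest positions, tied at 3 counts, were 2 nucleotides of intron 6. The surrounding sequence is shown as the highest single 5′ UTR position of the 10 genes, at chr5:159099692-159099712 on the minus strand, and is rich in pyrimidines.
EBF1 in DoHH-2: tccctttcttCtttttttcgg

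SPIB (ENSG00000269404, chr19:50418938-50431314, plus strand) and SPI1 (ENSG00000066336, chr11:47354860-47378547, minus strand) are related Ets factors, and PU.1 is also a main regulator of myeloid cells. SPIB had 115 counts at 99 positions in DoHH-2, 56.6 CPM (46.7–67.9), and 26 counts at 13 positions in GM01953, 156 CPM (102–228). It was 2.75-fold higher in GM01953 (1.72–4.24). By number of positions and without its highest positions SPIB was no longer past 2-fold, with ratios of DoHH-2 over GM01953 of 0.507 (0.283–0.985) and 0.542 (0.324–0.963). The tables list 71 of the DoHH-2 counts and all 26 of the GM01953 counts under a second, overlapping gene on the same strand as well, so its share of these reads is uncertain. In the coding sequence of SPIB lay 47.0% of its counts for DoHH-2 (38.1–56.0) and 57.7% for GM01953 (38.9–74.5). The 3′ UTR held 44 counts in DoHH-2 and 0 in GM01953, where 11 of 26 counts were in introns, 9 of them at 1 position of intron 5. Nucleotide 228 of the mRNA, in the coding sequence, had 3 counts in each line and an FDR of 0 in both. It was 1 of 3 positions tied as the highest of SPIB in DoHH-2. It is shown because, of the highest DoHH-2 positions of the 10 genes, no other passed the FDR threshold in GM01953, at chr19:50422891-50422911.
SPIB in both lines: gcagccgcttTtagccacccc

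SPI1 had 44 counts at 39 positions in DoHH-2, 21.6 CPM (15.7–29.1), and 0 in GM01953. A difference was not detectable at this depth, since the DoHH-2 level corresponds to 3.62 counts at the depth of GM01953 and the exact interval of the ratio of DoHH-2 over GM01953 starts at 0.940. Of protein-coding genes with at least 44 counts in DoHH-2, 5.29% had none in GM01953. Its mRNA is the shortest of the 10, at 1374 nt, and 93.2% of the counts lay in its exons. A stretch of 50 nt in the 3′ UTR, from 278 to 327 nt after the stop codon, held 15 of the 41 exonic counts and the highest position of the gene, with 3 counts.

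POU2AF1 (ENSG00000110777, chr11:111352255-111455630, minus strand) encodes the B-cell coactivator that binds to OCT1 and OCT2 on octamer DNA. It had 310 counts at 238 positions in DoHH-2, 152 CPM (136–170), and 65 counts at 37 positions in GM01953, 389 CPM (300.04–496). This is 2.55-fold higher in GM01953 (1.92–3.34). The 5′ UTR, although only 98 nt long, held 56 counts in DoHH-2, 18.1% (14.2–22.7), and 25 in GM01953, 38.5% (27.6–50.6). Over all protein-coding genes the 5′ UTR held 8.72% and 13.3%. The densest stretch of 50 nt was at the 5′ end of the mRNA in both lines. In DoHH-2 it covered nucleotides 1 to 50 with 44 counts at 24 positions, and in GM01953 nucleotides 24 to 73 with 19 counts at 10 positions. GM01953 had 13 counts in the stretch of DoHH-2, and DoHH-2 had 31 in that of GM01953.

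Among the genes with more than 2 positions in GM01953, POU2AF1 had the largest share of positions common to both lines. Of its 37 positions in GM01953, 18 were listed at the same nucleotide in DoHH-2, which is 48.6% (33.4–64.1) of the GM01953 positions and 7.56% of the DoHH-2 positions. A DoHH-2 position lay within 10 nt of 34 of the 37. Nucleotide 37 of the mRNA held 7 DoHH-2 counts and 2 GM01953 counts, and nucleotide 12 held 1 and 4. These 2 positions, chosen after their values were seen, are shown as nucleotides of the 5′ UTR listed in both lines. They lie at chr11:111379229-111379249 and chr11:111379254-111379274 on the minus strand. Nucleotide 12 lies outside the densest stretch of GM01953. The highest DoHH-2 position of the gene lay in its coding sequence, with 8 counts at chr11:111354504. In GM01953, 5 counts each lay at nucleotide 64, in the 5′ UTR, and 175 nt after the stop codon.
POU2AF1 nucleotide 37: acaccccggtCtcacattaaa
POU2AF1 nucleotide 12: agcggtggctCcactggagga

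POU2F2 (ENSG00000028277, chr19:42086110-42196585, minus strand), which encodes OCT2, was near the limit of detection. DoHH-2 had 4 counts at 4 positions, 1.97 CPM (0.536–5.04), and GM01953 had 8 counts at 6 positions, 47.8 CPM (20.7–94.3). It was 24.3-fold higher in GM01953, with a wide interval of 6.52 to 110. The highest positions in GM01953 were 2 nucleotides of the coding sequence with 2 counts each. No position passed the FDR threshold in either line, and none was shared. POU2F2 and IRF8 were thus the members with the lowest levels in DoHH-2, and POU2AF1, the partner of POU2F2, was lower there too but by far less.

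IKZF1 (ENSG00000185811, chr7:50304068-50405101, plus strand), a zinc-finger factor of the lymphoid lineages, had 613 counts at 499 positions in DoHH-2, 302 CPM (278–326). GM01953 had 43 counts at 16 positions, 257 CPM (186–346), and the ratio of 1.17 in favour of DoHH-2 had an interval that included 1 (0.860–1.64). The direction turned at sites, with a ratio of DoHH-2 over GM01953 of 0.597 (0.420–0.871), while by number of positions it was 2.08 (1.27–3.66) and without the highest position of each line 1.45 (1.03–2.12). The 3′ UTR, of 4474 nt, held 57.3% of the DoHH-2 counts (53.3–61.1) and 67.4% of the GM01953 counts (52.5–79.5). Most of them lay beyond 500 nt from the stop codon, with 302 of 457 exonic counts in DoHH-2, 66.1% (61.6–70.3), and 29 of 33 in GM01953, 87.9% (72.7–95.2). The higher share was thus in GM01953 on IKZF1 and in DoHH-2 on IRF4. The highest positions were both in the 3′ UTR but at different places. DoHH-2 had 12 counts at 1043 nt after the stop codon, and GM01953 had 9 counts at 2725 nt, where DoHH-2 had 4 counts within 10 nt. Of the 156 DoHH-2 counts outside the exons of the MANE Select transcript, 50 lay in exons of other transcripts of the gene. The 2 positions are shown as the highest of each line, at chr7:50401660-50401680 and chr7:50403342-50403362. They held 12 of the 351 counts of the 3′ UTR in DoHH-2 and 9 of the 29 in GM01953.
IKZF1 in DoHH-2: tgtacatctgTttgtagccac
IKZF1 in GM01953: agtttcttctGttgtatgatg

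Over the 10 genes together, the 3′ UTR held 47.7% of the DoHH-2 counts (45.9–49.4), compared with 28.0% over all protein-coding genes. The coding sequence held 19.3% (18.0–20.7) against 42.2%, introns 27.8% (26.2–29.3) against 17.1%, and the 5′ UTR 4.47% (3.81–5.24) against 8.72%. The 36 other lymphoid transcription factors described last had 26.7% of their DoHH-2 counts in introns (25.9–27.5), 25.7% in the coding sequence (24.9–26.5), 35.3% in the 3′ UTR (34.5–36.2) and 9.90% in the 5′ UTR (9.37–10.4). Their intron share was thus near that of the 10 genes, and their coding sequence and 3′ UTR shares lay between those of the 10 genes and of all genes. The 3′ UTRs of the 10 mRNAs range from 367 nt (SPI1) to 7291 nt (PAX5). Per kb and summed over the genes, the 3′ UTR and the coding sequence were nearly equal in DoHH-2, at 47.2 and 45.9 counts outside the codon regions. Single genes differed. The 3′ UTR was denser on BCL6 (153 against 75.2 per kb), PAX5, EBF1, SPI1 and IKZF1. The coding sequence was denser on SPIB (74.0 against 15.0), POU2AF1 (116 against 49.1), POU2F2 and, by little, IRF4. The part of the 5′ UTR more than 50 nt before the start codon had the highest density, at 105 per kb, with 43 counts on POU2AF1 and 42 on EBF1 out of 113. Around the stop codon it was 71 per kb, of which IRF4 gave 42 of 71 counts. In GM01953 the 3′ UTR held 31.8% (27.1–37.0), against 22.9% over all protein-coding genes, and the coding sequence 29.8% (25.1–34.9) against 41.0%. Introns held 27.7% there (23.2–32.7) against 17.9%, and the 5′ UTR 8.33% (5.83–11.8) against 13.3%. Without the highest position of each gene the intron share of GM01953 was 17.3%, near the 17.9% of all genes. The single BCL6 position gave 32 of the 93 intronic counts of GM01953, and the highest SPIB position gave 9.

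**Figure D4:**
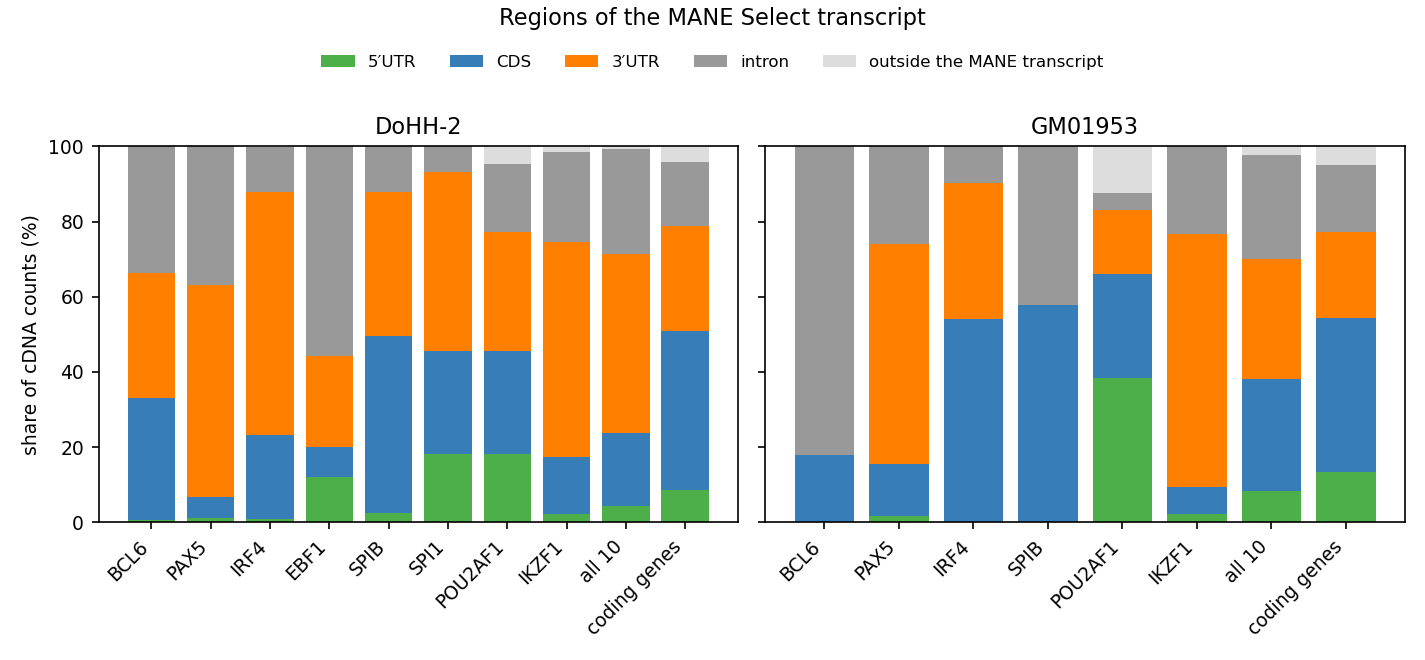
Share of cDNA counts (%) in the regions of the MANE Select transcript, for genes with over 20 counts in the line, DoHH-2 at left and GM01953 at right, beside the sum over the 10 genes and all protein-coding genes. The 3′ UTR takes 64.8% of the DoHH-2 counts on IRF4 against 36.1% for GM01953, and introns take 55.8% of EBF1 counts in DoHH-2.

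The counts of the 10 genes were more scattered in DoHH-2 than those of protein-coding genes in general. Positions with 1 count made up 87.9% of their positions, against 83.6%, and sites held 28.5% of their counts, against 48.7%. GM01953 was the reverse for sites, with 72.3% of counts against 66.1%, while 59.6% of positions had 1 count, against 60.4%. All 39 BCL6 counts, 32 of them at 1 position, are among the 243 counts at sites there. BCL6, PAX5, SPIB, POU2AF1 and IKZF1 lay above the 66.1%, and IRF4, IRF8, EBF1 and POU2F2 below it. Of the 161 positions in GM01953, 48 were listed at the same nucleotide in DoHH-2, which is 29.8% (23.3–37.3), close to the 33.1% over protein-coding genes. They were 1.86% of the 2584 DoHH-2 positions. Within 10 nt a DoHH-2 position was found for 65.8%, against 63.0%. The share of identical positions thus did not set the 10 genes apart.

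At the listed nucleotide of exonic positions, T (U in the RNA) was the most frequent base. It was found at 42.1% of 1776 positions in DoHH-2 (39.8–44.4) and 35.8% of 123 in GM01953 (27.9–44.6), against 25.1% and 25.3% in the same mRNAs weighted by their positions. A was the least frequent, at 12.0% and 10.6%. The nucleotide that followed was T at 46.1% and 47.2% of positions, and G at 8.05% and 4.07%. Over all exonic positions of protein-coding genes the share of T was 41.2% for DoHH-2 and 38.4% for GM01953, so the base at the cross-link on these genes was much like that elsewhere. UV cross-linking favours uridine for many proteins, which is background to these shares.

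A wider list of 36 other lymphoid transcription factors had counts for every gene in both lines. The bound genes among them numbered 25 for DoHH-2 and 7 for GM01953, against 33.3% and 8.34% of protein-coding genes with counts. In DoHH-2 the share bound was close to that of the 10 genes, of which 7 were bound. In GM01953, 5 of the 10 were. Of the 35 with at least 20 counts, 12 were at least 2-fold higher in DoHH-2 and 8 in GM01953. Over all genes these shares were 24.3% and 14.2%. The median of the list was 1.17-fold higher in DoHH-2, near the 1.15-fold of all genes. The summed level was 5869 CPM in DoHH-2 and 4175 in GM01953, opposite in direction to the sum over the 10 genes. ELF1, an Ets factor, had the most counts in DoHH-2 with 2364, followed by TCF3 (1249) and TCF4 (1020), E proteins of B-cell development. In GM01953 the highest were IKZF2 (53), an Ikaros relative, MEF2C (47), and ELF1 and TCF3 (46 each). In CPM, ELF1 was 4.23-fold higher in DoHH-2 (3.16–5.79) and MEF2C 4.30-fold higher in GM01953. Of 15 transcription factors of other lineages, 0 had counts in DoHH-2 and 2 in GM01953, TCF7 with 6 counts and CEBPA with 2, named here after their values were seen.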

How the data were processed

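The deposited values are cDNA counts at single cross-link positions, pooled over the replicates of a cell line. To make them, the authors took out duplicate reads with BBMap, split the libraries with Je, trimmed them, aligned them to GRCh38 with HiSat2 and ran iCount. The deposited FDR per position, which is a q-value, comes from iCount. Tool versions and the annotation release are not given in the sources used here. The counts are not normalized, and a position listed under several genes counts once in the library total. Listed positions count from 0, tested against gene ends, and 1 was added.

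Genes were taken by symbol and placed on MANE Select transcripts of GENCODE release 44. Stop codons count as coding sequence. Members and lists were chosen with earlier results of these data known. Named genes are the 10 members, the highest position of each, the 3 highest of the wider list per line, and listed markers with more than 20 counts at sites. Intervals are Wilson (shares), exact Poisson (levels) and exact conditional binomial (ratios), from scipy 1.17.1. Steps were tested on simulated data.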

Additional observations from a re-analysis of the deposited data

How the results depend on the processing

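No paired analysis was possible because the replicates were pooled in the deposited tables, and for the same reason no replicate could be left out. Of the 52 alternative values for the main results, 36 stayed within the interval of the main value, or within 1.5 times for counts of genes. The cause of the other shifts was not tested. The summed ratio of DoHH-2 over GM01953, 0.783, fell to 0.393 with counts at sites only and rose to 1.07 with the number of positions, which turned its direction. It was 0.987 without the highest position of each gene, an alternative chosen after seeing the data. The number of genes at least 2-fold higher in DoHH-2 was 0, and it was 2 with the number of positions (BCL6 and IKZF1), 2 in exons of the MANE Select transcript and 2 without the highest positions (BCL6 and EBF1 in both). On the GM01953 side 4 genes were past 2-fold, 6 with counts at sites, and 3 by number of positions, with positions listed for no other gene or without the highest positions, where SPIB was no longer past 2-fold. Asking for more than 50 counts left 6 bound genes in DoHH-2, without SPIB, and 0 in GM01953. With positions listed for no other gene, 6 were bound in DoHH-2, again without SPIB, and 5 in GM01953. In DoHH-2 the 3′ UTR share of 47.7% became 57.0% at sites, 54.4% at positions with at least 2 counts and 43.0% without IRF4. The intron share of 27.8% became 11.7%, 16.4% and 32.0% in the same order, and 30.3% by number of positions. In GM01953 the intron share of 27.7% became 20.5% by number of positions and 17.3% without the highest positions. With 167197 counts in GM01953, ratios for genes under about 20 counts have wide intervals.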

Other observations

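Counts on the strand opposite to the 10 genes were few, apart from BCL6. Its span held 57 antisense counts at 41 positions in DoHH-2, against 494 sense counts, and 0 in GM01953 against 39. PAX5 and EBF1 had 22 antisense counts each in DoHH-2, beside 563 and 392 sense counts in their spans, and PAX5 had 7 in GM01953. Within the span of SPIB, SPI1 and IRF8 no antisense count was listed in either line.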
